A study of Mus musculus with 36 samples.

Results

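Collagen chain genes encode the subunits of the collagens, the main proteins of the matrix between heart cells. They were chosen by name: a gene entered if the annotation of the 2 chips gave 1 symbol made of Col, a number, a and a number, and if a probe set for it had a mean signal over the 18 arrays of a chip of at least 20% of that chip's 2% trimmed mean. Of 42 collagen symbols on the chips, 35 passed this filter, among 14650 genes that passed it in all. The 7 others, Col2a1, Col9a2, Col9a3, Col10a1, Col13a1, Col17a1 and Col24a1, were too dim on both chips and were not followed further. Just inside the filter lay Col4a4 at 21.4% of the trimmed mean and Col11a1 at 22.7%, and just outside it Col13a1 at 14.9%. Col4a4 was the 1 member whose mean before induction was below the filter level. The 35 genes had 56 passing probe sets, and each gene is described by its brightest one, from chip 430A (26 genes) where one passed there and otherwise from chip 430B (9 genes).

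The hearts came from mice labelled Tet-myrAkt1/?MHC-tTA, in which the question mark stands for a character lost from the label. These mice carry a myristoylated form of the kinase Akt1 under tetracycline control and the transactivator tTA under a cardiac myosin heavy chain promoter, which is active in heart muscle cells. All 5 groups carry both transgenes, and hearts without them were not analysed here. Labelled as male, the mice were 12 weeks old before induction (4 hearts), 14 weeks old after 2 weeks of induction (4 hearts), 14 weeks and 2 days old after 2 weeks of induction and 2 days of repression (4 hearts), 18 weeks old after 6 weeks of induction (3 hearts), and 20 weeks old after 6 weeks of induction and 2 weeks of repression (3 hearts). Age rose with the time of induction, so age and induction cannot be told apart. The series describes separate mice, and whole heart tissue was used, in which fewer cells of a type and less RNA per cell cannot be told apart.

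Collagens are trimers of alpha chains wound into a triple helix. The fibrillar collagens I, III and V form the cable-like fibrils that give the heart wall its stiffness, with collagen V at the core of fibrils where it sets their diameter. Collagen IV forms the sheet of the basement membrane around heart muscle cells, vessels and nerves, collagen VI forms beaded filaments next to it, collagen VIII forms short-chain networks in vessel walls, and collagens XV and XVIII link basement membranes to the interstitium. In the heart the fibrillar chains come mainly from fibroblasts, and their rise is a usual measure of fibrosis.

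The start regions of 5 collagen genes are shown first: 3 of the 6 that were called higher in every later group, the shared start of the basement membrane pair, and Col27a1, called higher at 6 weeks of induction. RefSeq windows of 300 bases on GRCm38.p6, from 250 bases before to 50 bases after an annotated transcript start, were given for 28 of the 35 genes. Col1a1, Col4a3, Col5a2, Col12a1, Col14a1, Col22a1 and Col26a1 had none. The windows shown are those of Col1a2 (chr6:4505368-4505667, plus strand), Col3a1 (chr1:45311288-45311587, plus strand) and Col8a1 (chr16:57754688-57754987, minus strand). The Col4a2 window (chr8:11312555-11312854, plus strand) also covers the start of Col4a1. The last is that of Col27a1 (chr4:63215162-63215461, plus strand). Each is written from 5′ to 3′ on the strand of its gene, and capitals mark CCAAT, the GC box GGGCGG and the TATA motif TATAAA. A match on the opposite strand is capitalised too, where the GC box reads CCGCCC.
Col1a2: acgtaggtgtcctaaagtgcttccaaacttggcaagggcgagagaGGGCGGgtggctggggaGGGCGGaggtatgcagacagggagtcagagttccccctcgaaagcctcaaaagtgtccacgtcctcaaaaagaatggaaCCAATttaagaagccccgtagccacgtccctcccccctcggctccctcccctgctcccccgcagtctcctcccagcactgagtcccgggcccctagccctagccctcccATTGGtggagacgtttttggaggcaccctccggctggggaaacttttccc
Col3a1: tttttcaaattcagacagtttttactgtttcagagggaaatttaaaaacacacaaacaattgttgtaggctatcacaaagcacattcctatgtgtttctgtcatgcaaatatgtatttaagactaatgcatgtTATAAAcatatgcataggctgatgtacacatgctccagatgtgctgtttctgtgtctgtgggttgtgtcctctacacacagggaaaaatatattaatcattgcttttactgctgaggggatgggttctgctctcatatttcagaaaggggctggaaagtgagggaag
Col8a1: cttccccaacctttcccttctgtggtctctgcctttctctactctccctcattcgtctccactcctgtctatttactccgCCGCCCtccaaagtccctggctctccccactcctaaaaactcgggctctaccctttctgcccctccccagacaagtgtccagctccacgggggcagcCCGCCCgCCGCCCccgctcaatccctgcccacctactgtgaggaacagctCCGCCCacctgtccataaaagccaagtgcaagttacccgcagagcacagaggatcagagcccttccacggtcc
Col4a2: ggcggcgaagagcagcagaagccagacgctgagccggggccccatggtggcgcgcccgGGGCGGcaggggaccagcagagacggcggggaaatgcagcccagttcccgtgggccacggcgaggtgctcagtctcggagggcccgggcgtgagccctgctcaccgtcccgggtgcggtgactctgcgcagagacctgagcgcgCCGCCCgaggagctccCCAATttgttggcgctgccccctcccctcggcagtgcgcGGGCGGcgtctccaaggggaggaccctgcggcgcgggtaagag
Col27a1: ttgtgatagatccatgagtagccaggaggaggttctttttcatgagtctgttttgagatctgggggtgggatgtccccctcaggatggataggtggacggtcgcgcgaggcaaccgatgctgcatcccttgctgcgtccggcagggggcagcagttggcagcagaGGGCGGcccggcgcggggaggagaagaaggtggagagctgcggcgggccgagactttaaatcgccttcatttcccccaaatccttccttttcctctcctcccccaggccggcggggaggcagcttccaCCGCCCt

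The Col1a2 window held CCAAT 2 times and the GC box 2 times. Neither was found in the Col3a1 window, which held TATAAA instead. Col8a1 held 4 GC boxes, Col27a1 held 2, and Col4a2 held 3 together with 1 CCAAT. Among the collagen genes with a window, CCAAT was found for 12 of 28, the GC box for 20 of 28 and TATAAA for 2 of 28. Counted by window, as some genes had more than 1, they were found in 12, 21 and 2 of 31 windows. In all 32851 RefSeq windows of this length the shares were 37.4%, 35.7% and 13.6%. A match of these letters is a description, not a site. Col4a1 and Col4a2 lie head to head with starts 21 bases apart and windows that share 78 bases. Col4a5 and Col4a6 also lie head to head, on chromosome X, with starts 1343 bases apart. Col3a1 and Col5a2 on chromosome 1 and Col6a1 and Col6a2 on chromosome 10 are neighbours among protein-coding genes, and 7 pairs of members in all lie next to each other in this way.

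Akt1 had 3 probe sets, and which of them reads the transgene was not tested, so Akt1 is given as a description. One of them had signals of 508 to 652 before induction, 1981 to 3481 at 2 weeks and 1851 to 2931 at 6 weeks of induction, 696 to 745 at 2 days and 633 to 837 at 2 weeks of repression. The others changed at 2 weeks of induction by -0.23 and -0.63, neither called, and at 6 weeks by -0.54 (called lower, adjusted p = 0.0236) and -0.09. Some hearts stood apart from their groups. Hearts 3 and 4 before induction had Xist signals of 2518 and 2170.2 against 4.4 to 92.8 in the other 16 hearts, although the label of every mouse is male. Counts and collagen changes against the hearts before induction are therefore also given without them. Heart 3 of the 6-week group had a ratio of Actb 3′ to 5′ probe sets of 3.71 (430A) and 4.20 (430B), against 0.95 to 1.92 elsewhere, a ratio that rises with RNA degradation. Of the heart muscle cell markers, 11 of 11 were above the filter.

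After 2 weeks of induction 13 of the 35 collagen genes were higher than before induction and 0 were lower (limma, adjusted p under 0.05), while 3.69% of all genes were higher and 2.9% lower. The median change of the collagen genes was 0.46 on the log2 scale, against -0.02 over all genes tested. By structural class the higher genes were 6 of 9 fibrillar chains, 3 of 6 chains of collagen IV, 2 of 5 chains of collagen VI, 1 of 2 chains of collagen VIII and 1 of 2 multiplexins, and 0 of 7 fibril-associated chains. With an unadjusted p under 0.05, 18 were higher and 1 lower. The hearts of both groups did not overlap for 17 genes, each higher at 2 weeks, where 6.69% of all genes lay higher and 5.66% lower in this way. Without both Xist hearts 6 genes were called higher, against 1.19% of all genes: Col3a1, Col4a5, Col5a2, Col8a1 and Col15a1, and Col14a1 (1.03, adjusted p = 0.0388), which was not called with them. Without heart 3 before induction, or without heart 3 at 2 weeks, 8 genes were called.

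**Figure D1:**
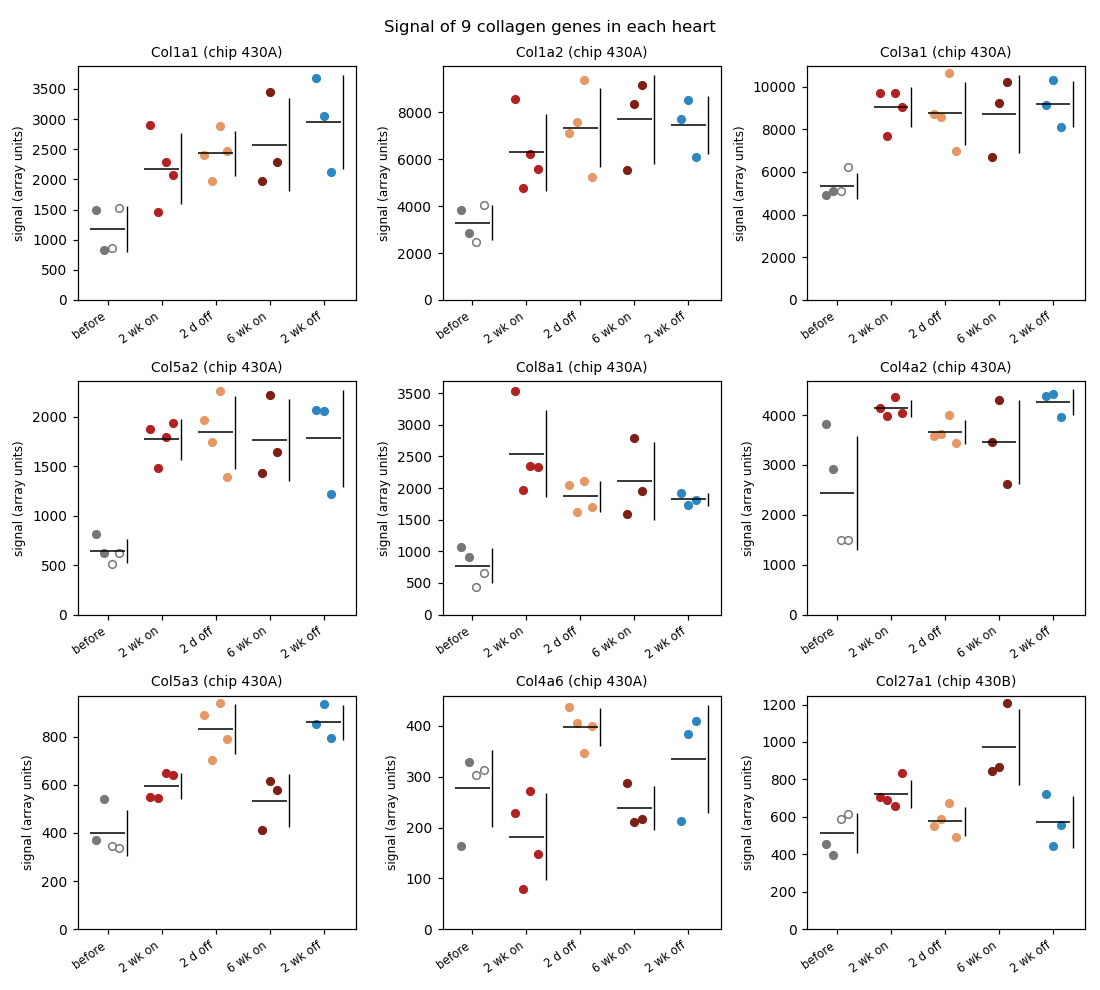
Signal in array units (vertical axis, from 0) of 9 collagen genes in each of 18 hearts, by group; horizontal lines are group means, vertical bars mean ± SD, and open points the 2 hearts before induction with Xist signal. The 5 groups are before induction, 2 wk of induction (2 wk on), 2 d of repression after it (2 d off), 6 wk of induction (6 wk on) and 2 wk of repression after it (2 wk off). Col8a1 and Col5a2 sit above all hearts before induction in every other heart, while Col4a2 is lowest in the 2 open points and Col27a1 is highest at 6 wk.

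Collagen I is the most abundant collagen of the heart. Col1a1, its alpha 1 chain, had signals of 1492, 824, 858 and 1521 before induction and 2904, 1459, 2281 and 2080.0 at 2 weeks. The groups overlapped, as 1 induced heart was below 2 hearts before induction, and the log2 change was 0.88 ± 0.24 (SE, adjusted p = 0.0256). Col1a2, the alpha 2 chain, had 3818, 2872, 2469 and 4051 before and 8574, 4786, 6217 and 5584 at 2 weeks. Every induced heart was above every heart before induction, with a log2 change of 0.91 ± 0.21 (adjusted p = 0.0100). Without the Xist hearts the changes were 0.90 and 0.88 and were not called (adjusted p = 0.109 and 0.0802). Col1a1 was also not called without heart 2 or 3 before induction or heart 1, 3 or 4 at 2 weeks (adjusted p = 0.0538 to 0.0920). Col3a1, whose chain forms collagen III, had 4898, 5123, 5092 and 6247 before and 9704, 7697, 9710.5 and 9039.6 at 2 weeks. Its groups did not overlap, and it rose by 0.75 ± 0.14 (adjusted p = 0.00308), or 0.84 without the Xist hearts (adjusted p = 0.0191).

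Collagen V nucleates fibrils, and its 3 chains changed by different amounts. Col5a2 had 811, 622, 511 and 626 before induction and 1878, 1477, 1795 and 1933 at 2 weeks. The lowest induced heart was well above the highest heart before induction. The log2 change of 1.40 ± 0.19 (adjusted p = 0.000129) was the largest of the fibrillar genes by the probe set described for each. Other probe sets of Col1a2 and Col5a1 rose by more (1.57 and 1.97). Col5a1 had 1002, 1218, 1065 and 1113 before and 2291, 1331, 1774 and 1739 at 2 weeks, again without overlap, and a change of 0.65 ± 0.15 (adjusted p = 0.0110). Col5a3 went from 369.8, 539.7, 345 and 338 to 551, 545, 647 and 639. Its highest heart before induction reached almost to the induced hearts, and its change was 0.54 ± 0.15 (adjusted p = 0.0280). Without the Xist hearts Col5a2 stayed called at 1.25 (adjusted p = 0.00801), and Col5a1 at 0.64 and Col5a3 at 0.37 did not (adjusted p = 0.101 and 0.337). The call of Col5a3 was also lost without heart 1, 3 or 4 before induction or heart 3 or 4 at 2 weeks (adjusted p = 0.0535 to 0.0902). Col27a1, a minor fibrillar chain measured on chip 430B, went from 453, 395, 589 and 614 to 704, 689, 659 and 834, without overlap but short of the threshold (change 0.50 ± 0.17, adjusted p = 0.155). Col11a1 and Col11a2, chains of the cartilage collagen XI, were not called.

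Col4a1 and Col4a2 encode the chains of the common basement membrane network. For Col4a1 the signals were 6252, 5534, 3854 and 3175 before induction and 11912, 7398, 8821 and 6466 at 2 weeks. Col4a2 read 3827, 2923, 1495 and 1493 before and 4149.5, 3985, 4366 and 4043 at 2 weeks. For both genes the 2 Xist hearts were the lowest of the group, and for Col4a2 the other hearts before induction came close to the induced ones. The changes of 0.88 ± 0.21 and 0.87 ± 0.22 (adjusted p = 0.0114 and 0.0190) fell to 0.51 and 0.30 without these hearts and were not called (adjusted p = 0.256 and 0.406). Leaving out heart 3 or 4 before induction alone, or heart 3 at 2 weeks, ended the call of Col4a2 (adjusted p = 0.0549 to 0.0760). Col4a5, a chain of the specialised basement membrane, had no such spread, with 778, 694, 763 and 779.6 before and 1329, 1137, 1368 and 1829 at 2 weeks. It rose by 0.85 ± 0.14 (adjusted p = 0.000978), or 0.88 without the Xist hearts (adjusted p = 0.0158). Its head-to-head neighbour Col4a6 read 165, 329, 302 and 313 before and 228, 79.3, 272 and 148 at 2 weeks, with overlap and no call (change -0.55 ± 0.25, adjusted p = 0.194). Col4a3 (0.03 ± 0.24) and Col4a4 (0.36 ± 0.18) were not called on their brightest chip 430A probe sets.

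Col8a1, a network collagen of vessel walls, had the largest log2 change of the 35 genes by the probe set described for each. Its signals were 1071, 906, 444 and 665 before induction and 3539, 1963, 2349 and 2335 at 2 weeks. No heart overlapped, the means were 771 ± 275 and 2546 ± 686 (SD, n = 4 each), and the change was 1.69 ± 0.22 (adjusted p = 0.000102), or 1.29 without the Xist hearts (adjusted p = 0.00437). Its partner chain Col8a2 was dimmer, with means of 29.3 ± 15.1 and 62.6 ± 17.5, and its change of 0.90 ± 0.33 missed the threshold (adjusted p = 0.192). Of the beaded filament chains, Col6a1 had 2115, 1725, 1727 and 1727 before and 3246, 2087, 3099 and 3330.1 at 2 weeks. Col6a2 had 2581, 1978, 1969 and 2323 before and 4144, 2746, 3926 and 3886 at 2 weeks. Heart 2 of the induced group was the lowest of its group for both genes, and for Col6a1 it lay below the highest heart before induction. The changes were 0.66 ± 0.19 and 0.71 ± 0.18 (adjusted p = 0.0334 and 0.0169), and neither was called without the Xist hearts (0.59 and 0.67, adjusted p = 0.240 and 0.137). Both calls were lost without heart 2 or 3 before induction or heart 1 or 3 at 2 weeks, and that of Col6a1 also without heart 4 of either group (adjusted p = 0.0815 to 0.0994 for Col6a1 and 0.0524 to 0.0554 for Col6a2). Col6a3 went from 1345, 1375, 1102 and 1142 to 1463, 1621, 1536 and 2023, a change of 0.40 ± 0.17 that was not called (adjusted p = 0.146).

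Col15a1, a multiplexin of the border between basement membrane and interstitium, had 887, 995, 1209.8 and 1007 before induction and 1694, 1398, 1739 and 1830.1 at 2 weeks. All induced hearts were higher, with a change of 0.68 ± 0.13 (adjusted p = 0.00327) that was 0.79 without the Xist hearts (adjusted p = 0.0139). Col18a1, the other multiplexin and source of endostatin, read 258, 249.6, 283 and 363 before and 354, 283, 357 and 498 at 2 weeks. These groups overlapped, and the change of 0.31 ± 0.22 was not called (adjusted p = 0.437). Among fibril-associated collagens, which decorate fibrils, Col12a1 was the highest in change but dim, with 21.8, 15.7, 37.8 and 57.3 before and 61.8, 102, 99.3 and 76.3 at 2 weeks on chip 430B. Its hearts did not overlap, and the change of 1.16 ± 0.37 missed the threshold (adjusted p = 0.122). Col16a1 was close to it as well (0.71 ± 0.22, adjusted p = 0.0585). The lowest change of all 35 genes was that of the transmembrane collagen Col23a1, at -0.74 ± 0.35 (adjusted p = 0.372).

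**Figure D2:**
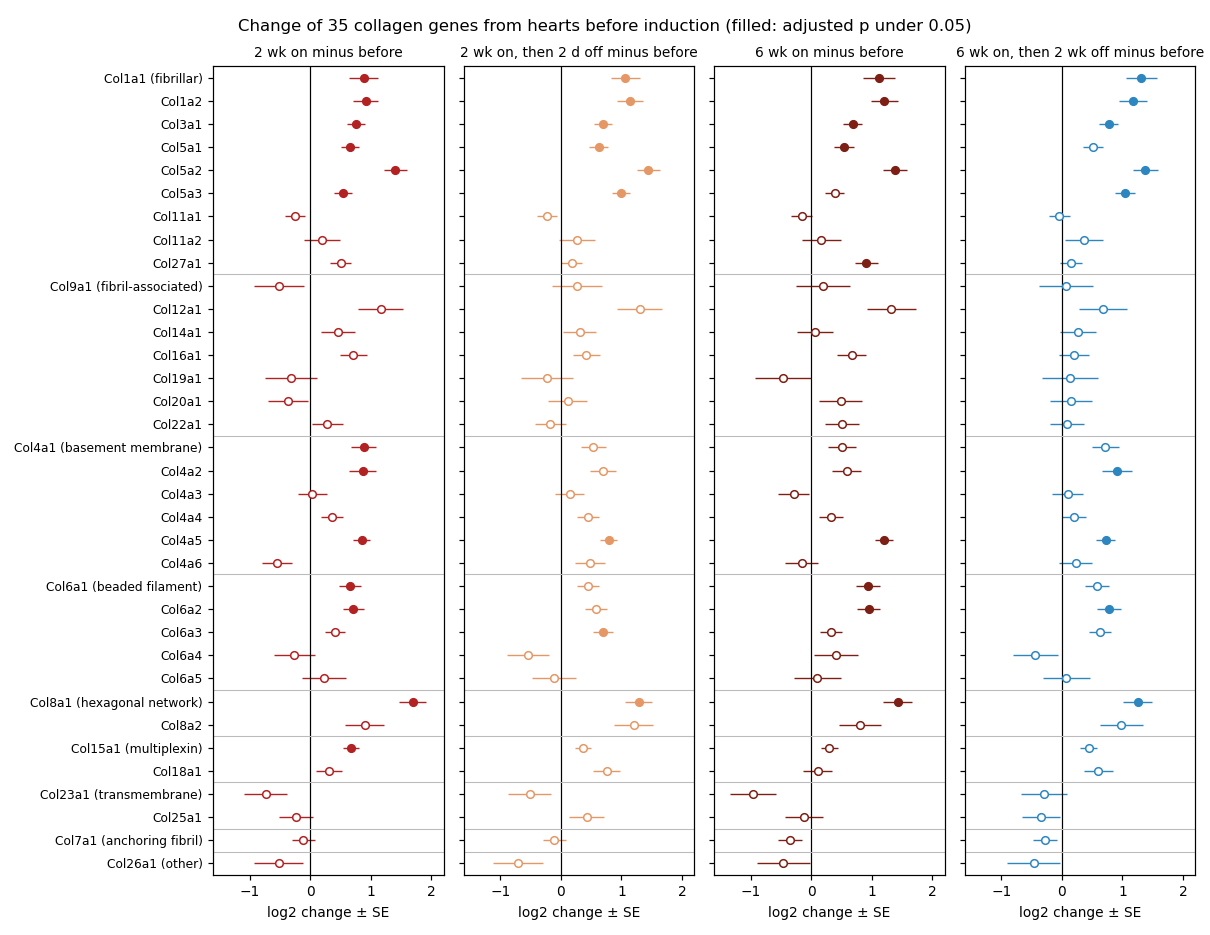
Log2 change (horizontal axis, point ± SE of the limma model) of the 35 collagen genes from hearts before induction in the 4 later groups, arranged by structural class; filled points passed an adjusted p of 0.05. Filled points lie at the right, with 13 at 2 wk of induction, 9 after 2 d of repression, 10 at 6 wk of induction and 9 after 2 wk of repression. Fibrillar chains hold 6, 6, 6 and 5 of them. The 4 panels share the hearts before induction.

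At 2 days after the transgene was switched off, the first of the 3 Akt1 probe sets changed by -1.90 ± 0.16 on the log2 scale against 2 weeks of induction, and the others by 0.13 and 0.17. In the same comparison 2 of 35 collagen genes were higher and 0 lower, against 5.23% higher and 5.36% lower among all genes, and the median collagen change was 0.04 against -0.00. At an unadjusted p under 0.05 there were 3 higher and 1 lower. None of the 13 genes higher at 2 weeks of induction was called lower, but with arrays scaled to a common median Col15a1 was (-0.44, adjusted p = 0.0436), and 1 gene was higher and 1 lower. How many of all genes higher at 2 weeks of induction were called lower here was not counted. Col4a6 rose by 1.03 ± 0.25 (adjusted p = 0.00830), with hearts at 437, 406, 347 and 399.5. Col5a3 rose by 0.44 ± 0.15 (adjusted p = 0.0450), with hearts at 888, 704, 938 and 791. All 4 repressed hearts were above all 4 induced hearts for both genes, and for 0 collagen genes were all below, against 9.47% and 9.67% of all genes. Without heart 3 before induction, hearts 1, 2, 3 or 4 at 2 weeks of induction, hearts 1, 3 or 4 at 2 days of repression, or heart 2 at 2 weeks of repression, Col5a3 was not called (highest adjusted p = 0.121).

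Compared with the hearts before induction, 9 of 35 collagen genes were higher after 2 days of repression and 0 lower, against 2% and 1.81% of all genes. At an unadjusted p under 0.05 there were 18 higher and 0 lower. The median collagen change was 0.45, against -0.01 over all genes. Of the 9, 8 had been higher at 2 weeks of induction, and both comparisons share the hearts before induction. The share of all genes with both calls was not counted. The hearts did not overlap for 15 genes that were higher and for 1 that was lower, Col26a1, against 6.35% and 6.72% of all genes. Col1a1 stood at 2400.3, 1971, 2891 and 2474 and Col1a2 at 7139, 7606, 9389 and 5257. Col3a1 stood at 8725, 8594, 10652 and 6991. All of these hearts were above all hearts before induction, with changes of 1.06 ± 0.24, 1.14 ± 0.21 and 0.70 ± 0.14 (adjusted p = 0.0131, 0.00415 and 0.00883). Col5a2 had 1963, 1746, 2264 and 1395 and Col5a1 1638, 1517, 1990.2 and 1759.8. Col8a1 had 2045, 1623, 2118 and 1707. These 3 genes were also apart from the hearts before induction, by 1.45 ± 0.19, 0.62 ± 0.15 and 1.29 ± 0.22 (adjusted p = 0.000308, 0.0218 and 0.00259). Col5a3 stood 0.99 above the hearts before induction (adjusted p = 0.000925), and Col4a5, at 1474, 1268, 1070.2 and 1626, stood 0.80 above them (adjusted p = 0.00315). Col1a1 was not called without heart 2 or 3 before induction (adjusted p = 0.0508 to 0.0531), and Col5a1 not without heart 1 or 3 before induction or heart 3 or 4 after it (adjusted p = 0.0588 to 0.0675).

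Col6a3, which had not passed at 2 weeks of induction, did so after 2 days of repression, with hearts at 1928, 1909.7, 2628 and 1732 and a change of 0.69 ± 0.17 (adjusted p = 0.0202), a call lost without heart 3 of either group (adjusted p = 0.0683 to 0.0683). Its difference between the 2 weeks of induction and 2 days of repression was 0.29 ± 0.17 and was not called (adjusted p = 0.243). Col6a1 at 2408, 2473, 3365 and 1948 and Col6a2 at 3213, 3179, 4126 and 2859.6 were not called (0.45 and 0.58, adjusted p = 0.169 and 0.0615). Col4a1 read 5868, 6519, 8316 and 5967 and Col4a2 3589, 3615, 4012 and 3449.9, with changes of 0.54 and 0.70 that were not called (adjusted p = 0.140 and 0.0720). Col15a1 at 1439, 1339.5, 1517 and 1050.0 overlapped with both earlier groups and was not called against either (-0.31 and 0.36, adjusted p = 0.104 and 0.112). Col18a1 at 622, 519.8, 581 and 386 lay above all hearts before induction and just missed the threshold (0.76 ± 0.22, adjusted p = 0.0512). Without the Xist hearts 6 genes were called higher, against 1.02% of all genes: Col1a2, Col3a1, Col4a5, Col5a2, Col5a3 and Col8a1, at 1.11, 0.78, 0.83, 1.29, 0.82 and 0.89.

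After 6 weeks of induction 10 of 35 collagen genes were higher than before induction and 0 lower, against 7.58% and 8.14% of all genes. At an unadjusted p under 0.05 there were 17 higher and 1 lower. The median collagen change was 0.41, against -0.05 over all genes. Fibrillar chains made up 6 of the 10. The hearts did not overlap for 11 genes that were higher and for 1 that was lower, Col23a1, against 10.8% and 11.8% of all genes. Col1a1 read 1981, 3455 and 2295 and Col1a2 5554, 8366 and 9179.7. Col3a1 read 6696, 9239 and 10207. Heart 1 was the lowest of its group for these 3 genes and still above every heart before induction, and the changes were 1.12 ± 0.26, 1.21 ± 0.23 and 0.69 ± 0.16 (adjusted p = 0.00483, 0.00118 and 0.00451). Col5a2 read 1428, 2224 and 1648 and Col5a1 1429.9, 1574 and 1895. Col8a1 read 1596, 2794 and 1957. Again no heart overlapped with those before induction, with changes of 1.38 ± 0.20, 0.54 ± 0.16 and 1.43 ± 0.24 (adjusted p = 0.000139, 0.0239 and 0.000424). Col5a1 was not called without heart 3 before induction or heart 3 at 6 weeks (adjusted p = 0.0519 to 0.109).

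Col27a1 was called higher only in the 6-week comparison of these 4 against the hearts before induction; whether its change differed from that at 2 weeks was tested and not called (0.41 ± 0.18, adjusted p = 0.297). Its 6-week hearts read 842, 866 and 1207, above all 4 hearts before induction and all 4 hearts at 2 weeks, and the change from before induction was 0.91 ± 0.18 (adjusted p = 0.00510). Its highest value came from heart 3, the heart with the high Actb ratio. Col4a5 at 1837, 1712 and 1853 had the lowest adjusted p of the collagen genes (1.20 ± 0.15, adjusted p = 3.00e-05). Col6a1 at 2441, 4052 and 4428 and Col6a2 at 2887, 4771 and 5672 rose by 0.94 ± 0.20 and 0.94 ± 0.19 (adjusted p = 0.00303 and 0.00206), with heart 1 the lowest for both. Col6a3 at 1504, 2109 and 1181 overlapped with the hearts before induction and was not called (0.32, adjusted p = 0.212). Col4a1 at 5048, 7922 and 6782, Col4a2 at 3451, 4296 and 2614 and Col15a1 at 1128, 1343 and 1337, all higher at 2 weeks, were not called here (0.51, 0.59 and 0.30, adjusted p = 0.112, 0.0882 and 0.137). Col5a3 at 410.5, 614 and 577 and Col18a1 at 164, 399 and 445 were not called either (0.39 and 0.11, adjusted p = 0.0942 and 0.781).

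Set against 2 weeks of induction directly, 0 of 35 collagen genes were called at 6 weeks in either direction (limma), against 2.35% higher and 2.82% lower among all genes. At an unadjusted p under 0.05 there were 3 higher, Col4a5, Col20a1 and Col27a1, and 1 lower, Col15a1 (-0.38 ± 0.14, adjusted p = 0.119). Hearts lay apart for Col20a1 and Col27a1, higher at 6 weeks, and Col15a1, lower, where 7.22% and 8.46% of all genes did so. The changes of Col4a1, Col4a2, Col5a3 and Col15a1 from before induction passed at 2 weeks and not at 6 weeks without a called difference between these groups. Leaving out both Xist hearts left 10 genes higher at 6 weeks than before induction, against 4.32% of all genes, with Col12a1 called (1.79, adjusted p = 0.0387) and Col5a1 not (0.53, adjusted p = 0.112). Scaling the arrays to a common median moved the median of all genes from -0.05 to 0.12 in this comparison, and 15 collagen genes were then called higher, against 11.8% of all genes.

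After 2 weeks of repression, against 6 weeks of induction, 1 of 35 collagen genes was higher and 2 were lower, while 7.19% of all genes were higher and 5.53% lower, and the median collagen change was -0.00 against 0.03 over all genes. An unadjusted p under 0.05 was found for 1 higher and 3 lower genes. Col27a1 went down to 719.8, 443 and 555 (-0.76 ± 0.20, adjusted p = 0.0348), and its hearts did not overlap with those at 6 weeks of induction. Col4a5 went down to 1418, 1127 and 1293 (-0.48 ± 0.16, adjusted p = 0.0427), also without overlap, and stayed above the hearts before induction. The second Col4a5 probe set changed the other way and was not called (0.32). Col5a3 rose to 850.3, 935 and 792 (0.65 ± 0.17, adjusted p = 0.0128), above all 6-week hearts. Among all genes 15% lay higher and 12.5% lower without overlap. Without heart 3 at 6 weeks of induction, the heart with the high Actb ratio, Col27a1 and Col4a5 were not called (adjusted p = 0.158 and 0.106), nor were they with that ratio as a covariate (adjusted p = 0.281 and 0.171) or without heart 2 or 3 of the repressed group. For Col4a5 the call was lost without each of 9 single hearts, among them heart 1, 2 or 3 at 6 weeks of induction and heart 2 or 3 of the repressed group (adjusted p = 0.0502 to 0.158). With the mean of a gene's probe sets 2 genes were higher and 0 lower, Col3a1 (0.67, adjusted p = 0.00612) and Col5a3. Col5a3 was not called without heart 1 at 6 weeks of induction or heart 2 of the repressed group (adjusted p = 0.0534 to 0.0639).

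Against the hearts before induction 9 of 35 collagen genes were higher after 2 weeks of repression and 0 lower, against 1.5% and 1.21% of all genes. An unadjusted p under 0.05 was found for 16 higher and 0 lower genes. The median collagen change was 0.37, against -0.00 over all genes. All 9 had also been higher at 2 weeks of induction, in a comparison that shares the hearts before induction. This overlap was not counted over all genes. The hearts did not overlap for 16 genes, each higher, where 7.39% of all genes lay higher and 6.94% lower. Col1a1 read 3674, 3048 and 2127 and Col1a2 7698, 8537 and 6116. Col3a1 read 9142, 10301 and 8120.3. Every one of these hearts was above all hearts before induction, by changes of 1.31 ± 0.26, 1.18 ± 0.23 and 0.78 ± 0.16 (adjusted p = 0.00725, 0.00681 and 0.00859). Col5a2 read 2070.5, 2062 and 1215 and Col8a1 1923, 1725 and 1816. Heart 3 was the lowest of the group for Col1a1, Col1a2, Col3a1 and Col5a2, though Col5a2 (1.38 ± 0.20, adjusted p = 0.00123) and Col8a1 (1.25 ± 0.24, adjusted p = 0.00652) did not overlap with the hearts before induction either.

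The rest of the 9 were Col5a3 (1.04 ± 0.16, adjusted p = 0.00175), Col4a5 (0.72 ± 0.15, adjusted p = 0.0112), Col6a2 and Col4a2. Col6a2 at 3920.1, 4019 and 3518 stood 0.78 above the hearts before induction (adjusted p = 0.0288). Col4a2 at 4391, 4432 and 3959 stood 0.91 above them (adjusted p = 0.0415), a difference of 0.34 without the Xist hearts (adjusted p = 0.364). Without each of 10 single hearts for Col4a2, without heart 2 or 3 before induction or any 1 repressed heart for Col6a2, and without repressed heart 1 for Col4a5, these were not called (adjusted p = 0.0516 to 0.125, 0.0599 to 0.0914 and 0.0646). Col4a1 at 8031, 7550.1 and 6920.5, Col5a1 at 1436, 1999 and 1394 and Col6a1 at 2854, 2901 and 2491 did not overlap with the hearts before induction and missed the threshold (adjusted p = 0.0804, 0.0868 and 0.117). So did Col6a3 at 1783, 2315 and 1782, Col15a1 at 1252, 1439.8 and 1537 and Col18a1 at 527, 418 and 436 (adjusted p = 0.0536, 0.0853 and 0.181). Col4a6 at 213, 383 and 409 overlapped with every group and was not called. Without both Xist hearts 5 genes were called higher, against 0.567% of all genes: Col1a1, Col1a2, Col3a1, Col5a2 and Col5a3, at 1.33, 1.14, 0.86, 1.23 and 0.87.

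The responses to late and early repression were compared directly by the difference of both contrasts. It was called for 0 of 35 collagen genes (limma), against 0.321% of all genes in each direction, and 1 gene, Col15a1, had an unadjusted p under 0.05 (0.46 ± 0.20, adjusted p = 0.317).

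**Figure D3:**
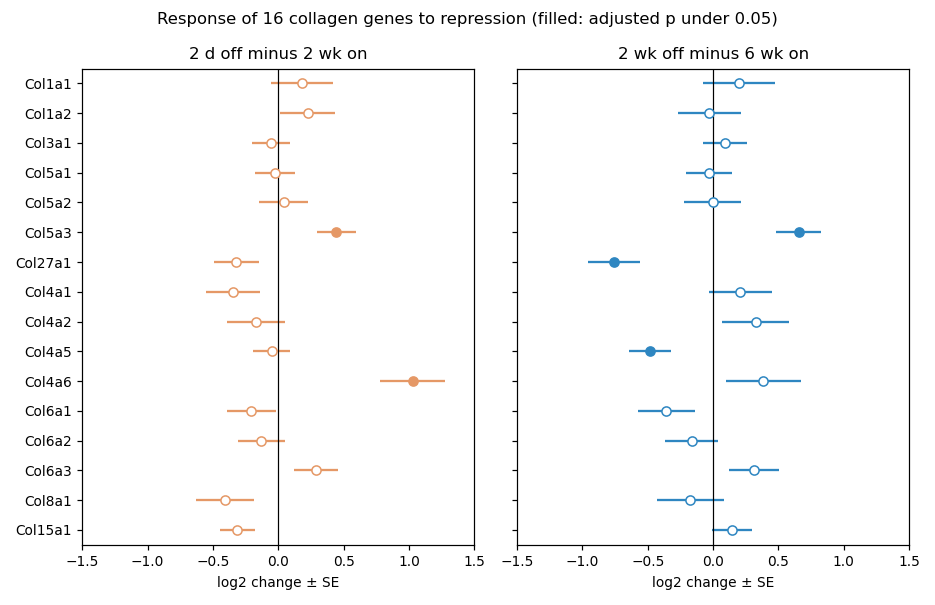
Log2 change (horizontal axis, point ± SE of the limma model) of the 16 collagen genes called in at least 1 comparison, for 2 d of repression against 2 wk of induction and for 2 wk of repression against 6 wk of induction; filled points passed an adjusted p of 0.05. Most points lie near 0, Col5a3 is to the right in both panels, Col4a6 to the right in the first, and Col27a1 and Col4a5 to the left in the second.

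Over the 4 comparisons with the hearts before induction, which share those hearts, 15 collagen genes were higher in at least 1 and 6 in all 4, namely Col1a1, Col1a2, Col3a1, Col4a5, Col5a2 and Col8a1. These counts use the probe set described for each gene. Without the Xist hearts only Col3a1 and Col5a2 of these 6 were called in all 4. Col1a1 was then not called at 2 weeks of induction or after 2 days of repression (adjusted p = 0.109 and 0.0516). Col1a2 was not called at 2 weeks of induction (adjusted p = 0.0802). Col4a5 and Col8a1 were not called after 2 weeks of repression (adjusted p = 0.0629 and 0.0787). Of these comparisons the second Col4a5 probe set was called only after 2 days of repression, with 0.36 at 2 weeks and 0.57 at 6 weeks of induction. The second Col3a1 probe set was not called at 6 weeks of induction (0.13). Over all 7 comparisons of groups 19 genes were never called: Col4a3, Col4a4, Col6a4, Col6a5, Col7a1, Col8a2, Col9a1, Col11a1, Col11a2, Col12a1, Col14a1, Col16a1, Col18a1, Col19a1, Col20a1, Col22a1, Col23a1, Col25a1 and Col26a1. They hold all 7 fibril-associated genes, both transmembrane genes and the anchoring fibril collagen Col7a1, and the count rests on the hearts of all groups: without the Xist hearts Col14a1 at 2 weeks and Col12a1 at 6 weeks were called, as given above. The shares of all genes called in at least 1, in all 4 or in none of these comparisons were not counted.

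The genes never called cover many parts of the matrix. Col14a1, which binds fibrils and was the brightest of them against its chip's trimmed mean, had group means of 495 ± 259 before induction (SD, n = 4), 641 ± 83.5 at 2 weeks and 473 ± 42.5 at 6 weeks of induction (n = 3). The SD before induction exceeded these differences. Without the Xist hearts the change of Col14a1 at 2 weeks was 1.03 and was called (limma, adjusted p = 0.0388). Col16a1, also fibril-associated, had 110.1, 229, 261 and 209 before, 424, 316, 271 and 410.5 at 2 weeks and 223, 470.2 and 363 at 6 weeks of induction. The 2-week hearts lay above all hearts before induction, and both changes were just short of the threshold (0.71 ± 0.22 and 0.67 ± 0.24, adjusted p = 0.0585 and 0.0572). Col12a1 stood 1.30 ± 0.37 above the hearts before induction after 2 days of repression and 1.32 ± 0.40 at 6 weeks of induction (adjusted p = 0.0889 and 0.0558), and Col8a2 1.20 ± 0.33 after 2 days (adjusted p = 0.0735). Col22a1, a collagen of tissue junctions, had means of 115 before and 168 at 6 weeks.

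Some of these genes had lower means after induction, and none passed. Col23a1 read 141, 174, 128 and 102 before and 85.2, 33.8 and 82.3 at 6 weeks. All 3 later hearts were below all 4 earlier ones, at a change of -0.96 ± 0.38 (adjusted p = 0.156). Col7a1, which anchors the skin's basement membrane, had means of 284 before and 207 at 6 weeks (-0.35 ± 0.20, adjusted p = 0.228). Col9a1, a chain of cartilage, had 246 before, 151 at 2 weeks and 242 at 6 weeks. Col20a1 had 139 at 2 weeks and 266 at 6 weeks, without overlap and without a call (0.86 ± 0.35, adjusted p = 0.158). Col25a1, a transmembrane collagen of neurons, was highest after 2 days of repression, at 281 against 204 before induction. For Col6a4, Col6a5, Col11a1, Col11a2, Col19a1 and Col26a1 every adjusted p in the 4 comparisons with the hearts before induction was above 0.37.

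Chains that assemble into 1 trimer can be set against each other within a heart. For 6 pairs chosen after their values were seen, the within-heart log2 difference was compared with that before induction in 4 groups by a two-sided exact permutation test, 24 tests in all. The change of Col1a2 less that of Col1a1 was 0.03 ± 0.11 (SE) at 2 weeks (exact p = 0.743), and that of Col4a2 less Col4a1 was -0.02 (exact p = 1). The change of Col5a2 less that of Col5a1 was 0.75 ± 0.19 at 2 weeks of induction (exact p = 0.0286, the smallest that 4 against 4 hearts allow). The same difference was 0.82 ± 0.21 at 2 days of repression, 0.84 ± 0.26 at 6 weeks of induction and 0.87 ± 0.26 at 2 weeks of repression (exact p = 0.0571 each, which for the last 2 is the smallest that 3 against 4 hearts allow). The adjusted p over the 24 tests was 0.171 for each of these 4, and hearts this few could not have given one under 0.05. The same exact p of 0.0571 and adjusted p of 0.171 were found in other pairs. For Col5a3 less Col5a1 the difference was 0.36 at 2 days and 0.53 at 2 weeks of repression. It was 0.20 for Col6a2 less Col6a1 at 2 weeks of repression and -0.62 for Col6a3 less Col6a1 at 6 weeks of induction. All other tests had a larger exact p. The differences rest on the probe set described for each gene. At 2 weeks the dimmer Col5a1 probe set rose by 1.97, more than either Col5a2 probe set (1.21 and 1.40).

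For 18 genes more than 1 probe set passed the filter, and for some they disagreed. The second probe set of Col1a1 gave larger changes than the first, with 1.18 ± 0.27 at 2 weeks and 1.98 ± 0.29 at 6 weeks of induction (adjusted p = 0.00938 and 0.000142). That of Col1a2 gave 1.57 ± 0.24 and 1.61 ± 0.26 (adjusted p = 0.000499 and 0.000317). The dim Col1a2 probe set of chip 430B was not called. The second Col8a1 probe set was called in the same 4 comparisons as the first, with 1.98 ± 0.20 at 2 weeks. The second Col4a1 probe set was called above the hearts before induction after 2 days (0.87) and 2 weeks (0.99) of repression. That of Col6a2 was called above them after 2 days (0.67). Both other Col5a1 probe sets were called above them after 2 weeks of repression, and neither at 6 weeks of induction. From 6 weeks of induction to 2 weeks of repression the second Col27a1 probe set was not called (-0.55).

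The second Col3a1 probe set followed another course at 6 weeks. It read 318, 346, 321 and 338 before induction, 594, 611, 699 and 638 at 2 weeks and 1089.8, 804, 886 and 741 after 2 days of repression. At 6 weeks of induction it read 299, 458 and 358, and after 2 weeks of repression it read 923, 1302 and 702. It was called lower at 6 than at 2 weeks of induction (-0.72 ± 0.17, adjusted p = 0.0182) and higher after 2 weeks of repression (1.26 ± 0.19, adjusted p = 0.000250), whereas the brighter probe set was not called in either (-0.07 ± 0.16 and 0.09 ± 0.17). The dimmer Col5a1 probe set read 168, 54.9, 41 and 52.5 before, 401, 395, 444 and 461 at 2 weeks and 266, 327 and 51.9 at 6 weeks of induction. Heart 3 of the 6-week group was as low as 3 of the hearts before induction there. The brighter probe set read highest in that heart. For the dimmer one the change at 2 weeks was 1.97 ± 0.32 (adjusted p = 0.000780).

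The second Col4a5 probe set was called higher after 2 days of repression than at 2 weeks of induction (0.93 ± 0.23, adjusted p = 0.00964), where the first was not called (-0.05 ± 0.14). Its 6-week hearts were 1524, 1039.9 and 478, with heart 3 again the lowest. For Col4a4 the dimmer of its chip 430B probe sets read 109, 35.8, 13.6 and 27.8 before induction and 313, 213, 209.8 and 221 at 2 weeks, and it was called higher then and after both repressions, but its 6-week hearts spread over 19.9, 86.3 and 188. The Col4a4 probe set of chip 430A and the brighter one of chip 430B were not called at 2 weeks (0.36 and 0.59). Heart 3, with the high Actb ratio, was thus the lowest of the 6-week hearts for these Col4a5 and Col5a1 probe sets and the highest for that of Col4a4, and the part of RNA quality was not tested.

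**Figure D4:**
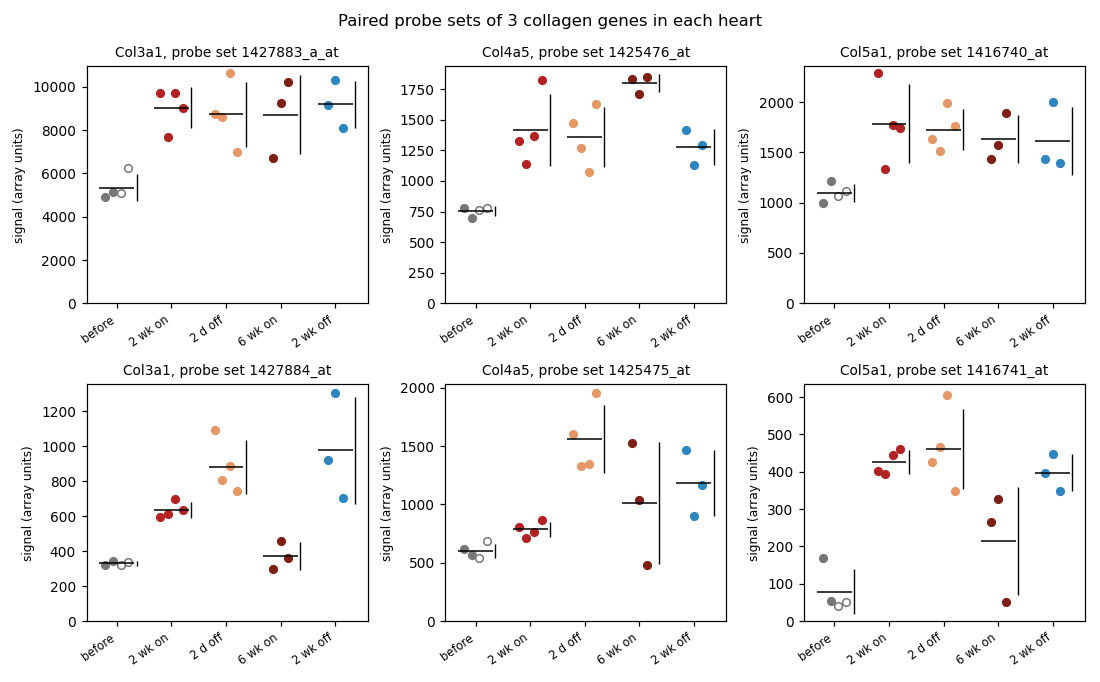
Signal in array units (vertical axes, from 0) of the brighter (top) and dimmer (bottom) probe set of Col3a1, Col4a5 and Col5a1 in each heart, by group; lines are means, vertical bars mean ± SD, open points the 2 hearts before induction with Xist signal. The dimmer Col3a1 probe set reads 299 to 458 at 6 wk of induction and 318 to 346 before it, while the brighter one is higher at 6 wk than before.

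Collagen needs a chain of partners to be folded, cut, laid down and linked, and these were followed as 8 lists. Against the hearts before induction, 3.69% of all genes were higher and 2.9% lower at 2 weeks, and 7.58% and 8.14% at 6 weeks of induction. After 2 days of repression 2% were higher and 1.81% lower, and after 2 weeks 1.5% and 1.21%. Many list counts are too small to be told from these shares. Without the Xist hearts the shares of higher genes are those given above with the collagen counts. Hydroxylases and sugar transferases modify the chains in the endoplasmic reticulum. The median change of each list is set beside -0.02 over all genes at 2 weeks and -0.05 at 6 weeks. Of 15 measured, 1 was higher at 2 weeks of induction, 5 at 6 weeks, and 0 after either repression, in comparison with the hearts before induction (3 had an unadjusted p under 0.05 after each repression). P4ha2, a prolyl hydroxylase subunit, read 955, 639.5, 659 and 589 before, 1208, 889, 1066 and 1177 at 2 weeks and 1585, 1654 and 1000.2 at 6 weeks. It rose by 0.59 ± 0.17 and 0.93 ± 0.18 (adjusted p = 0.0314 and 0.00133), and without the Xist hearts only the second was called (0.44 and 0.78, adjusted p = 0.315 and 0.0281). Plod2, the lysyl hydroxylase that sets up stable crosslinks, stood out at 6 weeks, with 2126, 2428 and 1939 against 1309, 1027, 1123 and 900.4 before induction and 871, 996 and 1092 after 2 weeks of repression. Its 6-week hearts were above all others, and it changed by 0.96 ± 0.16 with 6 weeks of induction and by -1.09 ± 0.17 with the repression that followed (adjusted p = 0.000340 and 0.000334). P3h2, Crtap and P4hb made up the 5, and the median of the list was 0.12 at 2 weeks and 0.27 at 6 weeks.

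Of 16 chaperones and export factors 2 were higher at 2 weeks (median 0.06). Serpinh1 encodes HSP47, the chaperone specific to procollagen, and read 2699, 2596, 3176 and 2500.3 before and 4694, 4666, 4329.5 and 3648 at 2 weeks. It rose by 0.65 ± 0.12 without overlap (adjusted p = 0.00309). After 2 days of repression it stood at 0.54 ± 0.12, at 6 weeks of induction at 0.44 ± 0.13 (adjusted p = 0.0154 and 0.0265), the last of which was not called without the Xist hearts (adjusted p = 0.0674). Sparc, a collagen-binding protein of the matrix, rose by 0.72 ± 0.18 at 2 weeks (adjusted p = 0.0157, and 0.278 without the Xist hearts). Of 4 measured proteases and enhancers of propeptide removal 2 rose and 1 fell at 2 weeks (median 0.33). Pcolce, the enhancer of the C-proteinase, read 1870.5, 1872, 1325 and 1868 before, 3767, 2516, 3425 and 2842 at 2 weeks and 2257, 2047, 2397 and 1699 after 2 days of repression. It read 3138, 4726 and 5567 at 6 weeks of induction and 2758, 2556 and 2057 after 2 weeks of repression. It was lower after both repressions than in the induced hearts before them, by changes of -0.56 ± 0.18 and -0.82 ± 0.20 (adjusted p = 0.0316 and 0.00854), after rises of 0.83 ± 0.18 and 1.32 ± 0.19 with induction. Bmp1, the C-proteinase itself, rose by 0.48 ± 0.14 at 2 weeks (adjusted p = 0.0355), and Pcolce2 fell (-0.63 ± 0.17, adjusted p = 0.0263). Without the Xist hearts Pcolce, Bmp1 and Pcolce2 were not called at 2 weeks (adjusted p = 0.0896, 0.0721 and 0.135), and Pcolce was at 6 weeks (1.20, adjusted p = 0.00302).

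Crosslinking enzymes tie fibrils together. Of 5 measured, 2 were higher at 2 weeks of induction, 4 at 6 weeks, 2 after 2 days and 1 after 2 weeks of repression, against the hearts before induction, with medians of 0.30 at 2 weeks and 0.73 at 6 weeks of induction. Lox, lysyl oxidase, read 143, 357, 265 and 214 before induction and 578, 528, 504 and 474 at 2 weeks. It read 614, 646, 679 and 445 after 2 days of repression, 574, 734 and 449 at 6 weeks of induction and 523, 578 and 467 after 2 weeks of repression. All 14 later hearts were above all 4 hearts before induction, with changes of 1.00 ± 0.19, 1.17 ± 0.19, 1.14 ± 0.21 and 1.01 ± 0.21 (adjusted p = 0.00306, 0.00196, 0.000888 and 0.0100). Without the Xist hearts the last was not called (1.03, adjusted p = 0.0629), while the first 3 were. Loxl1 rose by 0.82 ± 0.16 at 2 weeks and 0.73 ± 0.17 at 6 weeks (adjusted p = 0.00318 and 0.00528), and neither was called without the Xist hearts (adjusted p = 0.0830 and 0.0822). Tgm2, transglutaminase 2, read 9757, 9202 and 9532 at 6 weeks of induction and 4607, 4186 and 4356 after 2 weeks of repression, with a change of -1.11 ± 0.14 between them (adjusted p = 6.59e-05), and its late and early responses to repression differed (-0.83 ± 0.19, adjusted p = 0.0417).

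**Figure D5:**
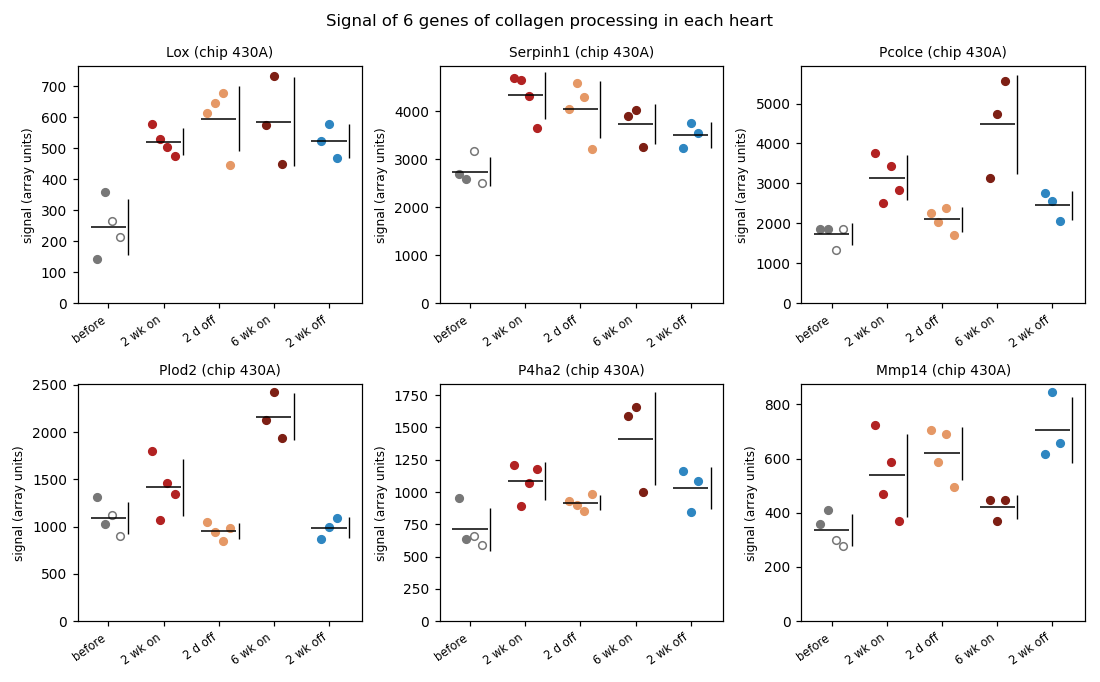
Signal in array units (vertical axis, from 0) of 6 genes of collagen folding, processing, crosslinking and breakdown in each heart, by group; lines are means, vertical bars mean ± SD, open points the 2 hearts before induction with Xist signal. Lox stays above the hearts before induction in all later groups, while Pcolce and Plod2 are high at 6 wk of induction and lower after 2 wk of repression.

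Fibril-binding proteoglycans and glycoproteins set the spacing of fibrils. Of 12 measured, 2 were higher and 1 lower at 2 weeks of induction, 3 higher at 6 weeks, 4 after 2 days and 3 after 2 weeks of repression (median 0.05 at 2 weeks of induction and 0.34 after 2 weeks of repression). Bgn, biglycan, was higher in all 4 comparisons (0.57 ± 0.12 at 2 weeks, adjusted p = 0.00518). Aspn, asporin, read 267, 236, 212 and 297 before, 404, 456, 505 and 684 at 2 weeks of induction and 657, 661, 625 and 606 after 2 days of repression. All hearts of the later groups were above those before induction, and the change to 2 days of repression was 1.19 ± 0.20 (adjusted p = 0.00256). Fn1, fibronectin, rose by 1.09 ± 0.23 and 1.14 ± 0.25 after both repressions (adjusted p = 0.0101 and 0.0143), and Fmod, fibromodulin, by 1.43 ± 0.31 at 6 weeks of induction (adjusted p = 0.00367). Of 9 receptors 0 were called at 2 weeks of induction (3 had an unadjusted p under 0.05, median -0.04) and 1 in each other comparison with the hearts before induction. Itgb1, the beta 1 integrin, read 1955, 1751, 2069 and 1991 before, 3638, 3613, 3447 and 3019.6 after 2 days and 4034, 3419.7 and 3909 after 2 weeks of repression. Repressed hearts were above all others, and the change was 0.80 ± 0.22 and 0.95 ± 0.24 (adjusted p = 0.0388 and 0.0319). Neither was called without the Xist hearts (0.87 and 1.01, adjusted p = 0.109 and 0.111). The 6-week gene was Ddr1 (0.64 ± 0.18, adjusted p = 0.0183).

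The partners of collagen IV in the basement membrane were higher for 4 of 12 at 2 weeks and for 0 of 12 at 6 weeks of induction (4 had an unadjusted p under 0.05, 1 higher and 3 lower), with 4 lower at 6 than at 2 weeks. Of all genes 2.82% were lower at 6 than at 2 weeks. The medians of the list were 0.35 at 2 weeks and 0.02 at 6 weeks. Lamb1, a laminin chain, read 797, 883, 658 and 498 before, 1286, 864, 1165 and 1436 at 2 weeks and 575, 436 and 744 at 6 weeks. Nid2, nidogen 2, read 153, 336, 213 and 246 before, 387, 392, 388 and 360.0 at 2 weeks and 117, 206 and 153 at 6 weeks. For both the 6-week hearts were below all 2-week hearts, with changes of -0.97 ± 0.21 and -1.07 ± 0.19 between the induced groups (adjusted p = 0.00964 and 0.00256). Pxdn, the peroxidase that crosslinks collagen IV, rose by 0.69 ± 0.18 at 2 weeks (adjusted p = 0.0432, and 0.275 without the Xist hearts). Of 10 collagen-degrading enzymes 2 were higher at 2 weeks (median -0.00). Mmp14, a membrane-bound collagenase, read 357, 409, 299 and 279 before, 724, 469, 588 and 371 at 2 weeks and 447, 371 and 449 at 6 weeks of induction. After repression it read 705, 586, 689.5 and 496 at 2 days and 616, 846 and 657 at 2 weeks. Its group means were highest after 2 days and 2 weeks of repression, at 0.79 ± 0.17 and 0.97 ± 0.19 above the hearts before induction (adjusted p = 0.0119 and 0.00697, and 0.131 and 0.0943 without the Xist hearts, neither called), and rose between 6 weeks of induction and 2 weeks of repression (0.67 ± 0.20, adjusted p = 0.0255). Without the Xist hearts 1 crosslinking enzyme, 1 chaperone and 1 fibril-binding gene were called at 2 weeks, and 0 genes of the other 5 lists. At 6 weeks 4 hydroxylases, 2 crosslinking enzymes, 3 fibril-binding genes, 1 propeptide gene, 1 receptor, 1 degrading enzyme and 0 chaperones were called higher without them, and 1 basement membrane partner, Lama4, lower. After 2 days of repression 1 crosslinking enzyme, 1 chaperone and 4 fibril-binding genes were called higher without them, after 2 weeks of repression 3 fibril-binding genes, and 0 genes of the rest of these 8 lists after either.

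Of 12 activated fibroblast markers 8 were higher at 2 weeks of induction, 9 at 6 weeks, 8 after 2 days and 8 after 2 weeks of repression, and 0 lower, against the hearts before induction, where 3.69%, 7.58%, 2% and 1.5% of all genes were higher. The counts were 5, 8, 7 and 4 without the Xist hearts, and the medians with them 1.27, 1.80, 1.34 and 1.36. Their summed signal over 10 genes of chip 430A was 3601 to 5096 before induction, 10000.1 to 13249 at 2 weeks and 11463 to 18651 at 6 weeks of induction, 7382 to 13001 after 2 days and 6874 to 13385 after 2 weeks of repression, without overlap between the first group and the others. Postn, periostin, had the lowest adjusted p, with 423 to 900.5 before and 4801 to 8089 at 2 weeks (3.11 ± 0.21, adjusted p = 7.94e-08). Of 14 fibroblast markers other than collagens 3 were higher and 2 lower at 2 weeks (1 and 0 without the Xist hearts), and their summed signal was 42675 to 52271 before induction and 37439 to 43237 at 2 weeks, with overlap. Of 16 endothelial markers 1 was higher at 2 weeks, while at 6 weeks 1 was higher and 4 were lower, Emcn, Kdr, Pecam1 and Tek (0 higher and 2 lower, Emcn and Pecam1, without the Xist hearts), and their summed signal was 16957 to 18829 before induction and 13974 to 18044 at 6 weeks. None of the markers was at 0. The marker and partner lists share genes, which count in each list they are on. Pcolce is both a propeptide gene and a fibroblast marker, and Lox both a crosslinking enzyme and an activated fibroblast marker. Sparc is on the chaperone and the basement membrane lists. The part of these cell types in the collagen changes was not tested.

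The other marker lists showed few calls at 2 weeks: 0 higher and 1 lower of 12 for smooth muscle and pericytes, and 1 higher and 1 lower of 11 for heart muscle cells (0 and 1, and 1 and 0, without the Xist hearts). Of all genes 3.69% were higher and 2.9% lower. For macrophages and leukocytes 0 of 12 were called (1 at an unadjusted p under 0.05), for Schwann cells and nerve 0 of 4 (0), for cartilage 0 of 4 (1), for epicardium 0 of 5 (0) and for adipocytes 0 of 3 (0). The cartilage markers Chad, Cnmd, Hapln1, Matn1 and Matn3 were below the filter, as was the cartilage collagen Col2a1. At 6 weeks 2 smooth muscle and pericyte markers were higher and 2 lower, where 7.58% and 8.14% of all genes were. After 2 days and 2 weeks of repression 0 of 12 macrophage and leukocyte markers were called against the hearts before induction. Their medians were 0.30 and 0.36, and 4 had an unadjusted p under 0.05 each time, all higher.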

How the data were processed

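Signals of 18 hearts on 2 Affymetrix chips (36 arrays) were linear intensity values deposited by the authors, made with MAS5 per the submitters' processing notes, and the arrays shared a 2% trimmed mean of 500.2 for chip 430A and 122.5 for chip 430B. Array medians were 183 to 232 and 60.9 to 78.9. No array repeated another, no scan batch is given in the sources used here, and arrays have no counting depth, so their number limits the precision.

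Control probe sets and those below 20% of the trimmed mean were left out, which left 15565 and 17519. After adding 10% of the trimmed mean (50.02 and 12.25), log2 signals were fitted per chip with limma 3.58.1 in R 4.3.3 (lmFit, eBayes with a trend), 1 mean per group over all 18 hearts. The 8 contrasts were adjusted by Benjamini-Hochberg within a chip over all tested probe sets and called at an adjusted p under 0.05. Errors of log2 changes are standard errors of that model, and a fold on this scale understates the change of dim genes. The fit was tested on simulated data.

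The members, the lists of 8 partner groups and 10 cell types, and the rule for named genes were chosen with earlier results of these data known. By that rule collagen genes called in at least 1 of 7 comparisons, and 13 main chains, are given heart by heart, with other probe sets where their calls differ, and up to 6 called genes of each list and comparison may be named. All 42 symbols matched RefSeq by gene ID. Hearts carry a number per chip, and whether the same number on both chips is the same heart is not stated, so no value was combined across chips. Over 100 probe sets on both chips, 13 of 18 hearts matched best the array of the same number. Fits without a heart left that number out on both chips, which takes them as the same heart. Alternatives were other offsets, filters, scalings, covariates, blocks and hearts left out.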

Additional observations from a re-analysis of the deposited data

Results flagged for a closer look

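In each group of 4 hearts the highest and lowest heart was compared with its group by Dixon's test at its 95% critical value of 0.829. This was done for 105 groups, 35 genes in 3 groups of 4, and 6 values stood out, where chance alone gives about 1 in 20 groups. Col3a1 in heart 4 before induction, a heart with Xist signal, was high at 6247 against 4898 to 5123 in the other 3. Col6a1 in heart 1 before induction was high at 2115 against 1725 to 1727. Col5a3 in heart 2 before induction was high at 539.7 against 338 to 370 in the others, and Col4a6 in heart 1 before induction was low at 165 against 302 to 329. Col4a3 in heart 2 at 2 weeks of induction was high at 318 against 154 to 182. Col7a1 in heart 3 after 2 days of repression was low at 199.5 against 269 to 275. These 6 values are spread over 5 hearts and 3 groups, and no cause was tested.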

How the results depend on the processing

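Counts of called collagen genes were recomputed under 12 alternatives and with each of 18 hearts left out. No called gene changed direction in any of them. Of 46 called gene comparisons 25 were called under all 30 alternatives and 21 were lost under at least 1. For 2 days of repression against 2 weeks of induction the count was 1 with no filter on dim probe sets, with quantile normalization, with the Actb ratio as a covariate, with the replicate block and without the eBayes trend. For 2 weeks of repression against 6 weeks of induction it was 1 with arrays scaled to a common median, with the Actb covariate and without the trend, and 0 with only the compared groups in the fit, which uses fewer hearts. Without both Xist hearts it was 6 at 2 weeks of induction and 5 after 2 weeks of repression, against before induction. The split of calls changed in places. With arrays scaled to a common median 1 gene was higher and 1 lower after 2 days of repression against 2 weeks of induction, and with the mean of a gene's probe sets 2 were higher and 0 lower after 2 weeks of repression against 6 weeks of induction. With that mean 1 gene was lower at 6 than at 2 weeks of induction. The causes were not tested.

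Leaving out 1 heart gave 8 to 14 genes at 2 weeks of induction, 6 to 13 after 2 days of repression, 9 to 13 at 6 weeks of induction and 6 to 10 after 2 weeks of repression, each against before induction. It gave 1 to 2 for 2 days of repression against 2 weeks of induction, 0 to 3 for 2 weeks of repression against 6 weeks of induction, 0 for 6 against 2 weeks of induction, and 0 for the late against the early response.

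The labels give the groups the same replicate numbers, but these are only numbers: deviations of same-numbered hearts from their group means correlated at -0.156 to 0.325 on chip 430A (median -0.02 over 33 pairs). With the replicate number as a block the counts were 13, 9, 10 and 7 at 2 weeks of induction, 2 days of repression, 6 weeks of induction and 2 weeks of repression against before induction (13, 9, 10 and 9 without the block). They were 1 for 2 days of repression against 2 weeks of induction (2 without it) and 3 for 2 weeks of repression against 6 weeks of induction, as without it, and 0 for both others.

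The groups of 3 and 4 hearts, 2 hearts with Xist signal among the 4 before induction, and the rise of age with induction limit these comparisons. For dim genes the errors were wide, as for Col12a1 and Col8a2 at 2 weeks of induction (standard errors of 0.37 and 0.33).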
